A study of Mus musculus with 9 samples.

Results

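MyoD1 binding was examined at the genes of 10 factors of the AP-1 family: Fos, Fosb, Fosl1, Fosl2, Jun, Junb, Jund, Atf3, Batf3 and Maff. A locus was taken as the annotated gene body with 10 kb on each side. Peaks of the 6 libraries that overlapped or touched were merged into 58309 regions, and 47 of these overlapped the 10 loci. Of the 47 regions, 16 had a peak in all 6 libraries, and they lay at 9 of the 10 genes. Batf3 was the exception. All 10 genes are among the 21911 protein-coding genes of the annotation, GENCODE vM21, which served as the background.

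The cells were C2C12, a mouse skeletal muscle myoblast line. A clone was used in which endogenous MyoD1 carries an N-terminal 3xFlag-HaloTag and which holds an additional doxycycline (dox)-inducible 3xFlag-Halo-MyoD1 transgene under the TRE3G promoter. CUT and RUN with the M2 anti-Flag antibody recovers DNA cut free around the tagged protein, so both pools of MyoD1 were mapped together. Cells were switched to differentiation medium with dox (+dox, 3 biological replicates) or without it (no dox, 3 biological replicates) and collected after 6 h, and the comparison asks how binding at the endogenous MyoD1 level differs from binding at a raised level. Both groups share the tagged alleles, the transgene and the switch of medium. The 3 wild-type libraries were not analysed here, so no signal from untagged cells stands beside the values.

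AP-1 factors are basic leucine zipper proteins that bind DNA in pairs. Fos family members pair with Jun family members and bind TGACTCA, whereas factors of the ATF group also bind the related cAMP response element, TGACGTCA. Many AP-1 genes are immediate-early genes, transcribed within minutes of a growth or stress signal, and Fos and Jun are known to restrain myogenic differentiation in myoblasts. MyoD1 binds the E-box CANNTG and prefers CAGCTG.

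Heights are given as percentiles, the rank of a peak's maximum signal among all peaks of its own library. Where 1 library had several peaks in a region, the highest of them gave the region's value. The lists were of unequal length: +dox replicate 3 held 53661 peaks at 8030000 alignments, and the other 5 libraries held 9389 to 13877 peaks at 2868000 to 4667000 alignments. In a list with more weak peaks a given peak takes a higher percentile. The percentiles are therefore set beside a second rank, the common rank, which is the percentile among the 4838 regions that had a peak in all 6 libraries. Values of a group are given in the order of replicates 1, 2 and 3. More cells with a bound site and more binding in each cell cannot be told apart in such bulk libraries, and the labelled cell type was not checked against markers, since no RNA was measured in them. Core regions are those with a peak in at least 2 of 3 no dox libraries, and Expanded regions are those with a peak in at least 2 of 3 +dox libraries that overlap no Core region. Regions are named by the distance of their highest point from the annotated gene start, with minus for upstream. That point was taken from the library in which the region had its highest percentile. For most AP-1 regions called in all 6 libraries this was +dox replicate 3.

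The DNA under the highest points of 2 loci, Junb and Fos, is shown first because these had the strongest peaks. Capitals mark the CAGCTG E-box, the AP-1 sequence TGACTCA, the cAMP response element or a CArG box, the binding sequence of serum response factor, on either strand. The Junb window is chr8:84981176-84981376 and the Fos windows are chr12:85473476-85473676 and chr12:85472126-85472326, all on the plus strand of GRCm38.
Junb -2.6 kb: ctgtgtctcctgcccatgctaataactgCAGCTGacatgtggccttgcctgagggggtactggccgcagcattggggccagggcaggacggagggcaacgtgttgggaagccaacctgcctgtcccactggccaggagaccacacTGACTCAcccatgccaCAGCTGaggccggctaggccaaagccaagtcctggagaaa
Fos -0.3 kb: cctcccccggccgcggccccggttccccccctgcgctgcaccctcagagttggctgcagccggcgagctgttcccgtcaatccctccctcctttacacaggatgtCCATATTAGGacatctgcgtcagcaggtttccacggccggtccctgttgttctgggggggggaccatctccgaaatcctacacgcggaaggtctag
Fos -1.7 kb: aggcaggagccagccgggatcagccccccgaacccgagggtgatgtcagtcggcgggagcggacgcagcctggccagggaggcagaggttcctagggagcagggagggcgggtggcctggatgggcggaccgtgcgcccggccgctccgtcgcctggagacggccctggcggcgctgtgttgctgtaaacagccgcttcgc
The Junb window held 2 CAGCTG E-boxes and 1 TGACTCA. The Fos window at -0.3 kb held the CArG box of the promoter and no CAGCTG, and the Fos window at -1.7 kb held none of the marked sequences.

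Junb, a Jun family member and an immediate-early gene, had the strongest locus. Its main region, Junb -2.6 kb at chr8:84974651-84983100, ran from the upstream flank over the gene body, as the map of peaks at the 10 loci shows. Its percentiles were 97.3, 96.8 and 94.5 without dox and 98.7, 98.4 and 99.0 with dox. The 3 +dox values were above the 3 no dox values. The highest point lay at the same place, -2.56 kb, in all 6 libraries, in the window with the pair of E-boxes shown above. It was covered by 156, 142 and 66 alignments without dox and 328, 290 and 298 with dox. The common rank, which does not depend on the length of the lists, was 94.8, 91.6 and 85.9 without dox and 96.8, 95.7 and 89.8 with dox. Here the groups overlapped. The whole region held 9 CAGCTG sequences.

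**Figure D1:**
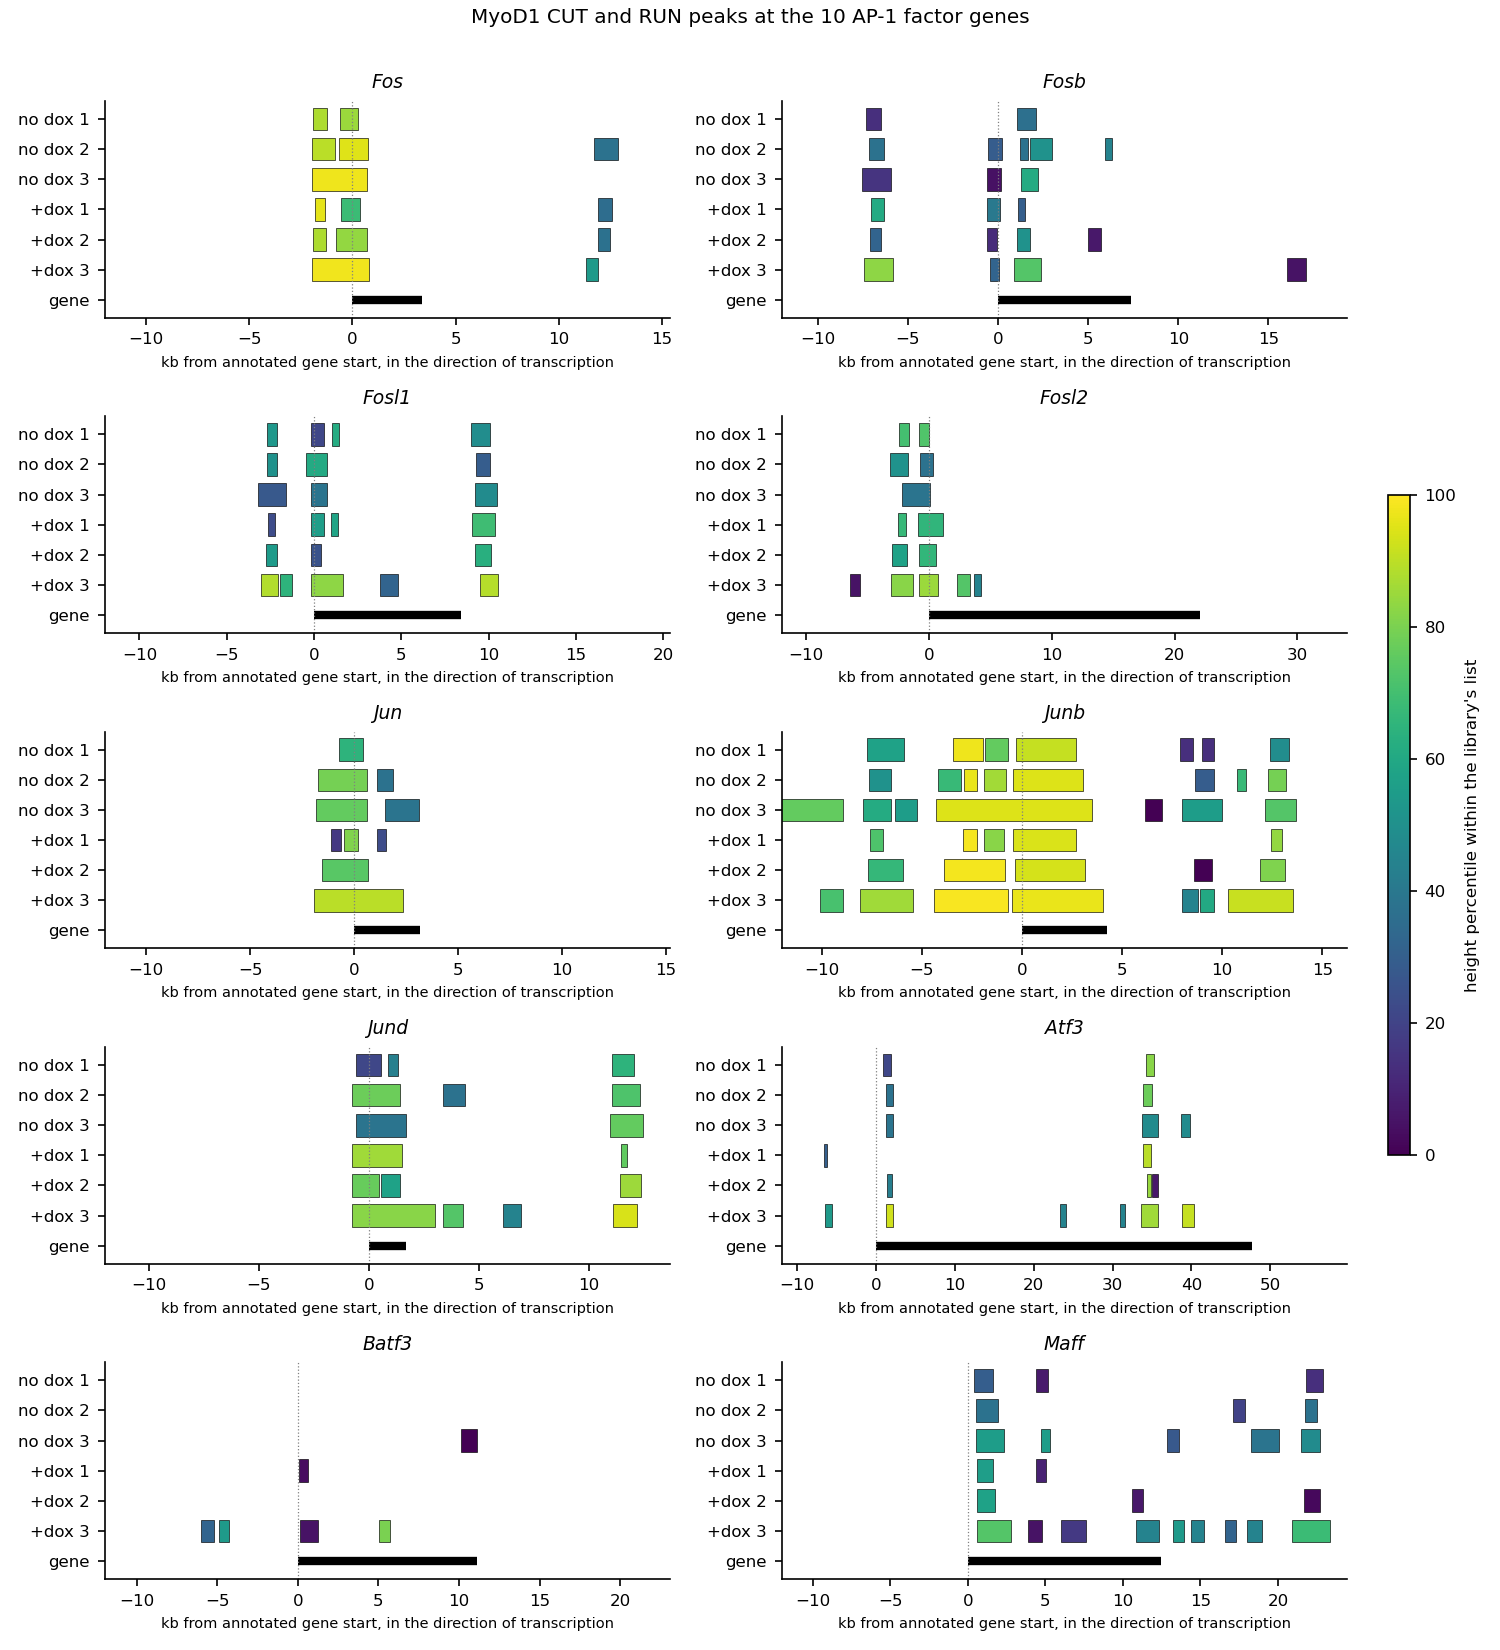
Peaks at the 10 AP-1 factor genes. Each bar is a peak of 1 library (rows), drawn by distance in kb from the gene start (x axis) and coloured by its height percentile within that library's list, with the gene body in black. The Junb and Fos upstream peaks are in the upper range of the colour scale in every library, and no peak of Batf3 occurs in all 6.

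Fos, the founding member of the family, followed. Its promoter region, Fos -0.3 kb at chr12:85471951-85474700, had percentiles of 87.6, 95.1 and 97.3 without dox and 95.9, 87.8 and 98.0 with dox. The groups overlapped, and the lowest values were in no dox replicate 1 and +dox replicate 2. The highest point was at -0.31 kb in no dox replicates 2 and 3 and +dox replicate 3, and at -1.66 kb in the other 3 libraries. Each place, whose sequence is given above, was thus the highest in at least 1 library of both groups. The 3 libraries with the highest point at -1.66 kb had a separate, lower peak over the start. It stood at 84.8 in no dox replicate 1, 68.1 in +dox replicate 1 and 83.6 in +dox replicate 2.

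The loci were ordered by the percentile of the strongest peak at the locus in each library, averaged over the 6 libraries. It ran Junb (97.5 ± 1.68, SD, n = 6 libraries), Fos (93.6 ± 4.70), Jund (80.6 ± 10.1), Atf3 (79.1 ± 16.2), Jun (77.5 ± 8.28), Fosl1 (65.2 ± 13.5), Fosl2 (63.3 ± 16.3), Fosb (57.3 ± 15.5) and Maff (51.5 ± 15.7). For each neighbouring pair the difference was smaller than the larger SD of the pair, except between Fos and Jund. Fos stood above Jund in 6 of 6 libraries, Jun above Fosl1 in 6 of 6, and Junb above Fos in 5 of 6. Among the 5485 protein-coding genes with a peak in every library, the same measure put Junb at the 94.8th percentile of genes and Fos at the 87.4th. Jund, Atf3 and Jun lay between the 53.9th and 59.9th, and Fosl1, Fosl2, Fosb and Maff between the 12.7th and 30.9th.

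The other Jun family genes had peaks over their promoters. Jun encodes the main partner of Fos, and Jun -0.3 kb (chr4:95049101-95054150) had percentiles of 64.6, 79.1 and 76.1 without dox and 81.0, 74.1 and 89.7 with dox. The groups overlapped through +dox replicate 2. Jund, the Jun family member that is expressed steadily rather than induced, had 2 regions called in all 6 libraries. Its promoter region, Jund -0.1 kb (chr8:70698201-70701950), had percentiles of 43.0, 77.7 and 38.6 without dox and 85.9, 76.6 and 82.2 with dox, so no dox replicate 2 lay inside the +dox range. The value of no dox replicate 1 came from a separate peak at 1.08 kb, and the peak over the start was at 21.4 in that library. Jund +11.6 kb had 64.6, 72.2 and 76.1 without dox and 75.8, 85.2 and 93.9 with dox, and its highest point lay in a coding exon of Iqcn, the nearest gene by coding start.

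Junb had 3 further regions called in all 6 libraries. Junb -7.0 kb had percentiles of 57.7, 51.0 and 61.2 without dox and 72.0, 66.8 and 85.6 with dox, with no overlap of the groups. Junb +12.5 kb, over Rnaseh2a, had 48.5, 79.1 and 73.4 against 83.7, 80.6 and 91.7, and Junb -11.7 kb, near the start of Hook2, had 64.6, 51.0 and 76.1 against 86.4, 77.7 and 91.4. These groups did not overlap either, though +dox replicate 2 was within 2 percentile points of the highest no dox library in both. On the common rank the groups overlapped at all 3 regions, with +dox replicate 3 inside the no dox range. The highest point of Junb -11.7 kb lay outside the 10 kb flank, and the region counts through its edge. Another Core region of the locus, Junb +9.4 kb, had a peak in 5 libraries and was missed in +dox replicate 1.

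The windows of 5 further promoters and flanks are shown for their AP-1, cAMP response element or CArG sequences. They are Junb -7.0 kb (chr8:84985576-84985776), Fosb -6.8 kb (chr7:19316751-19316951), Jund -0.1 kb (chr8:70698726-70698926), Maff +0.9 kb (chr15:79347376-79347519) and Junb -11.7 kb (chr8:84990326-84990526), on the plus strand of GRCm38. The Maff window was shortened where it met a transcribed untranslated stretch.
Junb -7.0 kb: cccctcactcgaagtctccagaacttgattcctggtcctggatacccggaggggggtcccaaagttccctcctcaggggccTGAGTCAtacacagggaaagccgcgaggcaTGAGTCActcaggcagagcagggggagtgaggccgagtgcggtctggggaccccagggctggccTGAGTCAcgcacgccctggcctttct
Fosb -6.8 kb: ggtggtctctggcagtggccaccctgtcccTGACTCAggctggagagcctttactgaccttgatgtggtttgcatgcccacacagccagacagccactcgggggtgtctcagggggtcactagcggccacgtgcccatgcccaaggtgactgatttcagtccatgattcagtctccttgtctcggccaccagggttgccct
Jund -0.1 kb: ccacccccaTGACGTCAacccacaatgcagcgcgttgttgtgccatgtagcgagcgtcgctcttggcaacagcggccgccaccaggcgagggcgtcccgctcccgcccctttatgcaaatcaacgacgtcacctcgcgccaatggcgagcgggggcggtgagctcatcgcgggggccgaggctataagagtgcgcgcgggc
Maff +0.9 kb: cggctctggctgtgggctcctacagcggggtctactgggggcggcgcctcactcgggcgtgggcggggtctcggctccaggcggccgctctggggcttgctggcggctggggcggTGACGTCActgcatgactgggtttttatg
Junb -11.7 kb: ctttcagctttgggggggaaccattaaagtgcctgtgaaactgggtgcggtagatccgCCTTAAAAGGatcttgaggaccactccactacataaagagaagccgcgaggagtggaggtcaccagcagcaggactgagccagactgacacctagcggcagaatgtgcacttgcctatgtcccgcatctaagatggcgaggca
Junb -7.0 kb held 3 TGACTCA sequences and no CAGCTG within its window. Jund -0.1 kb and Maff +0.9 kb each held a TGACGTCA, and Junb -11.7 kb held a CArG box.

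The Fos family genes other than Fos had lower peaks. Fosl1 (Fra-1) had 3 regions called in all 6 libraries. At Fosl1 -2.4 kb the percentiles were 53.3, 51.0 and 27.5 without dox and 23.0, 54.4 and 88.4 with dox. At Fosl1 +0.2 kb, a region over the start of the gene, they were 61.5, 60.7 and 38.6 against 58.4, 25.7 and 83.1. At both regions, the lowest and the highest of these 6 values were +dox libraries. In replicate 1 of each group the Fosl1 +0.2 kb value came from a separate peak at 1.28 kb. The peak over the start was at 21.4 in no dox replicate 1 and 55.8 in +dox replicate 1. Fosl1 +9.9 kb, over Ccdc85b, had 48.5, 29.1 and 47.9 without dox and 68.9, 63.2 and 88.9 with dox. It was also the 1 region of 16 whose common rank was higher in every +dox library (39.9, 26.8 and 29.7) than in any no dox library (24.8, 3.68 and 18.0).

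Fosl2 (Fra-2) had a promoter region, Fosl2 -0.1 kb, with percentiles of 72.4, 51.0 and 38.6 without dox and 67.2, 65.7 and 84.8 with dox. The groups overlapped through no dox replicate 1. The values of no dox replicate 2 and +dox replicate 1 came from separate peaks at -1.98 and -2.02 kb. The peak over the start was at 37.5 and 65.3 in these libraries. Fosb, an immediate-early gene whose protein resembles Fos, had a region in the gene, Fosb +1.6 kb, with 36.6, 51.0 and 61.2 against 29.7, 50.8 and 73.2, again overlapping. Its upstream region, Fosb -6.8 kb, had 13.6, 37.5 and 14.9 without dox and 60.8, 31.9 and 83.1 with dox. Here +dox replicate 2 fell below no dox replicate 2. A Core region over the Fosb start, Fosb -0.2 kb, was called in 5 libraries at percentiles of 4.47 to 40.6.

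Atf3, a stress-induced factor, had its strongest region inside the gene. Atf3 +34.5 kb (chr1:191182251-191184450) lay 186 bp upstream of an internal Atf3 start and had percentiles of 82.2, 77.7 and 47.9 without dox and 89.5, 84.4 and 85.6 with dox. The groups did not overlap in these percentiles, but the common ranks of 67.8, 45.1 and 18.0 against 74.6, 61.2 and 20.4 overlapped. Atf3 +1.8 kb, near the first start, was called in 5 libraries, with percentiles of 21.4 to 42.4 in 4 of them and 93.0 in +dox replicate 3. It had no peak in +dox replicate 1.

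Maff, a small Maf protein with no activation domain of its own, had 1 region called in all 6 libraries. Maff +0.9 kb had percentiles of 29.3, 37.5 and 55.3 without dox and 55.8, 57.6 and 73.2 with dox. The groups were separated by less than 1 percentile point, and the common ranks of 10.5, 6.43 and 24.3 against 25.7, 21.2 and 5.44 overlapped. The locus held further Core regions that were not called in every library. Maff +5.0 kb, in an intron, was called in no dox replicates 1 and 3 (6.80 and 55.3) and +dox replicates 1 and 3 (9.05 and 4.90). Maff +22.1 kb, in an intron of Tmem184b, had percentiles of 13.6, 37.5 and 47.9 without dox and 2.25 and 68.0 in +dox replicates 2 and 3. Batf3, known for its role in dendritic cells, had few peaks over its gene body and flanks: 0, 0 and 1 without dox and 1, 0 and 4 with dox. The strongest of these, Batf3 +5.2 kb at the 79.9th percentile, was called in +dox replicate 3 alone. Its window at chr1:191102976-191103176 held 2 AP-1 sequences and no CAGCTG.
Batf3 +5.2 kb: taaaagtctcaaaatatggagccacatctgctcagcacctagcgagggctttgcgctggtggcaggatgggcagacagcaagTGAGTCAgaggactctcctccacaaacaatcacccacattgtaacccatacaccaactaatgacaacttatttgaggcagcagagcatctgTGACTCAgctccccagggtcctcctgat

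**Figure D2:**
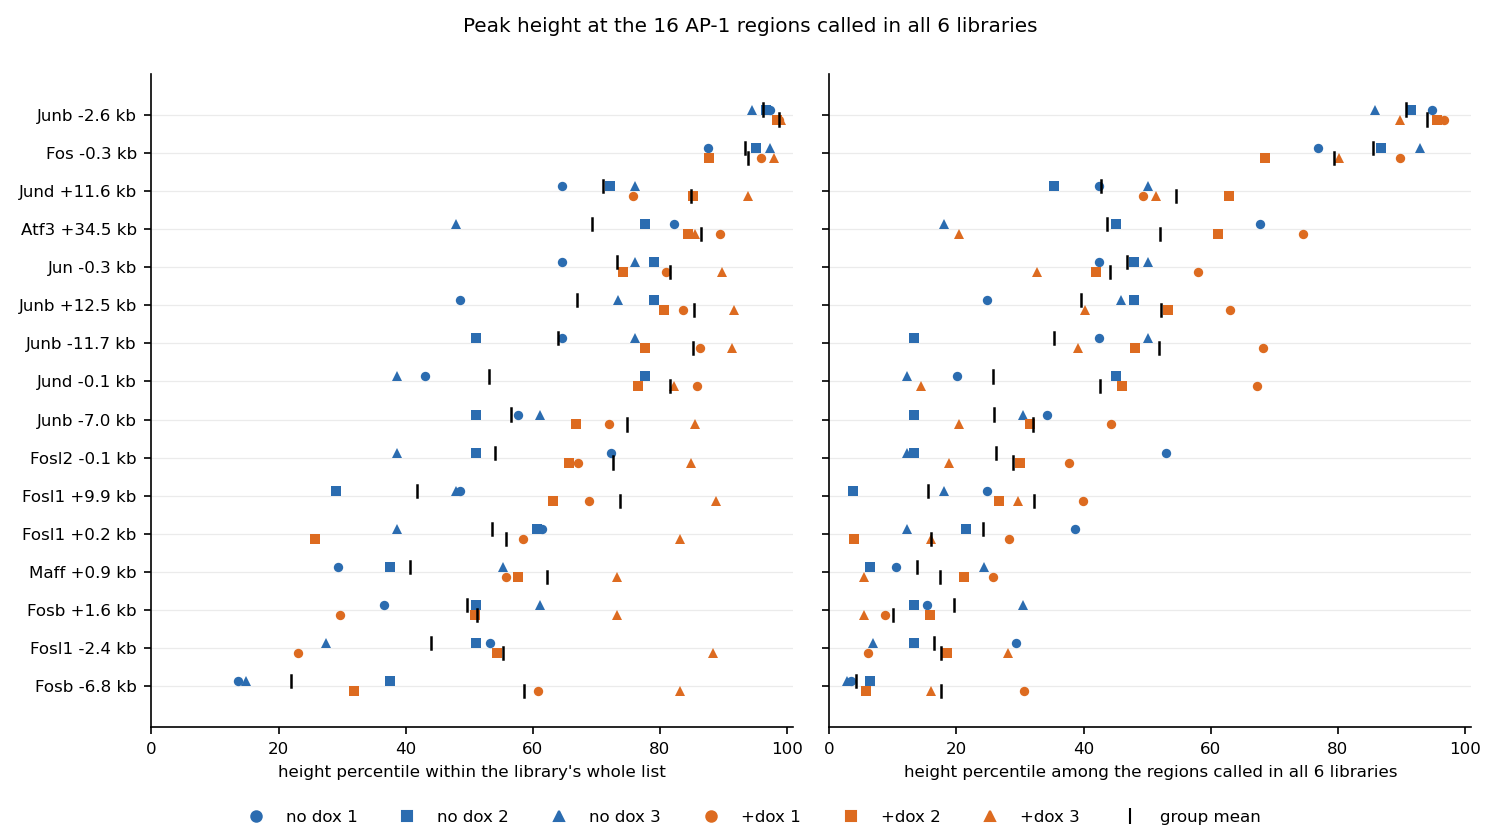
Height of the 16 AP-1 regions called in all 6 libraries, as percentile within each library's whole list (left) and as percentile among the 4838 regions called in all 6 libraries (right), with 1 symbol per library (blue no dox, orange +dox, shape by replicate) and a bar at each group mean. Of the 16 regions, 7 have all +dox symbols right of all no dox symbols on the left panel and 1 on the right panel.

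Set against the genome, the loci were often bound without dox. At least 1 region called in all 6 libraries lay at 9 of 10 AP-1 genes, where the background was 21.7% of protein-coding genes, and at least 1 Core region lay at 9 of 10, where the background was 35.5%. Loci of like length gave similar backgrounds, 20.7% and 33.8% of the 15389 genes whose windows were within the members' range of lengths. Of the 47 regions, 16 (34.0%) were called in all 6 libraries, with a background of 8.3% of all regions. The regions were denser, at 14.6 per 100 kb of locus against 4.15 over all protein-coding genes. This density was not matched for length, and the median locus was 27.9 kb for the AP-1 genes and 37.4 kb for all genes. The 16 regions were not higher than other regions called in all 6 libraries: the median of the mean percentile was 66.5 over the 16 regions and 76.2 over all 4838.

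The same count was made for related gene lists. Of 19 immediate-early genes outside the family, 17 had a region called in all 6 libraries. The mean percentile of the strongest peak was 99.2 at Srf, which encodes serum response factor, and 99.1 at Egr2. The counts were 11 of 23 other leucine zipper genes (Mafa 99.6, Nfil3 93.1), 2 of 9 upstream kinases and ETS factors (Elk3 85.5, Mapk9 60.7) and 5 of 12 known AP-1 target genes (Ccnd1 88.4). At least 1 Core region lay at 18 of 19, 16 of 23, 4 of 9 and 8 of 12 genes of these lists. At least 1 Expanded region lay at 11, 5, 3 and 6 genes. Over all protein-coding genes the shares were 21.7% for regions called in all 6 libraries, 35.5% for Core and 25.6% for Expanded. The AP-1 genes had 9, 9 and 4 of 10, so a high share was not particular to them.

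The number of peaks at the AP-1 loci did not separate the groups. The 10 loci held 26, 31 and 28 peaks without dox and 27, 27 and 47 with dox, or 28.3 ± 2.52 against 33.7 ± 11.5 (SD, n = 3 each). The high value was that of +dox replicate 3, and without it the difference, +dox minus no dox, was -1.33 peaks. Per 1000 peaks of the list the loci held 2.77, 2.23 and 2.09 peaks without dox and 2.15, 2.04 and 0.876 with dox, with the low value again in +dox replicate 3. At 0 of 10 genes did every +dox library have more peaks than any no dox library (background 3.09%), and at 0 of 10 did every +dox library have fewer (background 0.00913%). At Junb the counts were 7, 8 and 7 without dox and 5, 5 and 7 with dox, and at Maff they were 3, 3 and 5 against 2, 3 and 9.

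**Figure D3:**
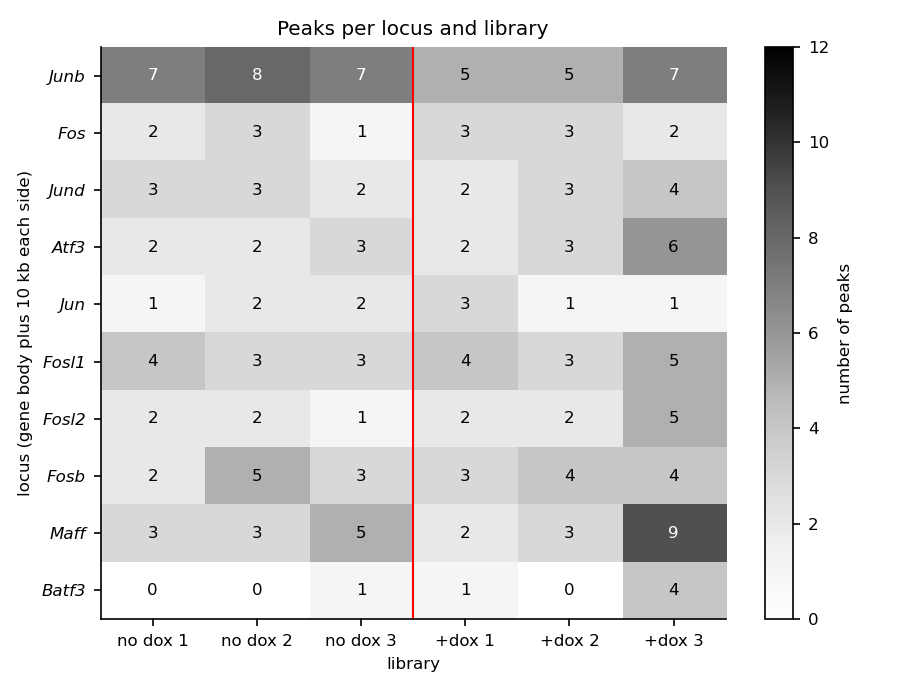
Number of peaks at each AP-1 locus (rows, ordered by the mean percentile of the strongest region) in each library (columns, no dox left of the red line), with the count printed in each cell and shaded by it. Maff with 9 peaks in +dox replicate 3 has the highest count, and Junb has 5 to 8 peaks in every library.

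Expanded regions lay at 4 of the 10 genes, Fos, Atf3, Maff and Batf3, where 25.6% of all genes had at least 1. The loci held 22 Core regions within 21 merged regions, and each of these also had peaks in at least 2 of 3 +dox libraries. They held 4 Expanded regions, 1 at each of these genes. Fos +11.8 kb had peaks in the 3 +dox libraries at percentiles of 35.5, 37.4 and 54.0 and in no dox replicate 2 at 37.5. Atf3 -6.2 kb had 29.7 and 54.0 in +dox replicates 1 and 3, Batf3 +0.6 kb had 3.50 and 4.90 in the same libraries, and Maff +11.6 kb had 6.48 and 44.8 in +dox replicates 2 and 3. All 4 had a peak in +dox replicate 3, and without that library 1 Expanded region was found. None of the 47 regions (0) was called in all 3 +dox and 0 no dox libraries, for which the background was 1.09% of all regions. Of the 17 regions called in a single library, 13 came from +dox replicate 3, at 6 to 32 alignments, or 27.7% of the 47 regions where 59.2% of all regions were of that kind.

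At the 16 regions called throughout, the mean percentile was higher in each +dox library than in any no dox library, whereas the mean common rank overlapped between the groups. The mean percentile of the 16 was 57.8, 62.3 and 57.8 without dox and 70.8, 67.6 and 87.0 with dox (59.3 ± 2.60 against 75.1 ± 10.4, SD, n = 3 each). All 16 regions had a higher mean with dox, as did 76.1% of all 4838 regions, and the median difference was 17.7 percentile points for the 16 and 6.40 for all. Groups did not overlap at 7 of 16 regions, where the background was 23.7%, and at 6 of the 15 whose highest point lay within the locus. With each list shortened to its 9389 strongest peaks, 0 of 11 regions were separated in this way, where the share of all regions was 2.13%. The shares and median over all 4838 regions were not matched for rank. The 16 lay lower in the lists, with a median mean percentile of 66.5 against 76.2, and a lower percentile has more room to rise.

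On the common rank the mean of the 16 was 38.8, 31.5 and 33.9 without dox and 49.3, 39.5 and 31.8 with dox (34.8 ± 3.72 against 40.2 ± 8.78), with +dox replicate 3 inside the no dox range. The median difference was 4.91 points for the 16 and 0.195 for all 4838. Every +dox library was above every no dox library at 1 of 16 regions, Fosl1 +9.9 kb (background 3.56%), and below at 0 of 16 (background 4.44%).

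No change in height was detected at any of the 16 regions. Log2 heights were centred on the median region of each library and compared with limma over all 4838 regions. At an adjusted p under 0.05, 0 of 16 AP-1 regions and 0 of 4838 regions in all were called (background 0%), and at an unadjusted p under 0.05 the counts were 0 of 16 and 124 of 4838. The log2 changes at the 16 regions ran from -0.68 at Fosb +1.6 kb to 0.53 at Junb -2.6 kb, 10 of 16 were above 0, and their median was 0.17 beside -0.02 for all regions. Junb -2.6 kb changed by 0.53 ± 0.40 (SE; limma adjusted p = 0.984) and Fos -0.3 kb by -0.19 ± 0.43 (SE; limma adjusted p = 0.984). The Junb value was 0.02 when total signal took the place of maximum signal and -0.12 without no dox replicate 3. The SE of the 16 estimates ran from 0.37 to 0.57, so a change of the sizes seen was not detectable with 3 libraries a group. The exact two-sided permutation p of single regions, unadjusted, was 0.2 to 0.8 over the 16, where 0.1 is the smallest value possible. With replicates of the same number treated as a pair, limma called 0 of 16 and 1 of 4838, and the counts at an unadjusted p under 0.05 were 1 of 16, Junb -2.6 kb, and 627 of 4838. Junb -2.6 kb had the lowest adjusted p of the 16 (limma adjusted p = 0.348). Without centring, the median of all regions was 0.91 and that of the 16 was 1.10, so the AP-1 values are to be read relative to that shift.

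**Figure D4:**
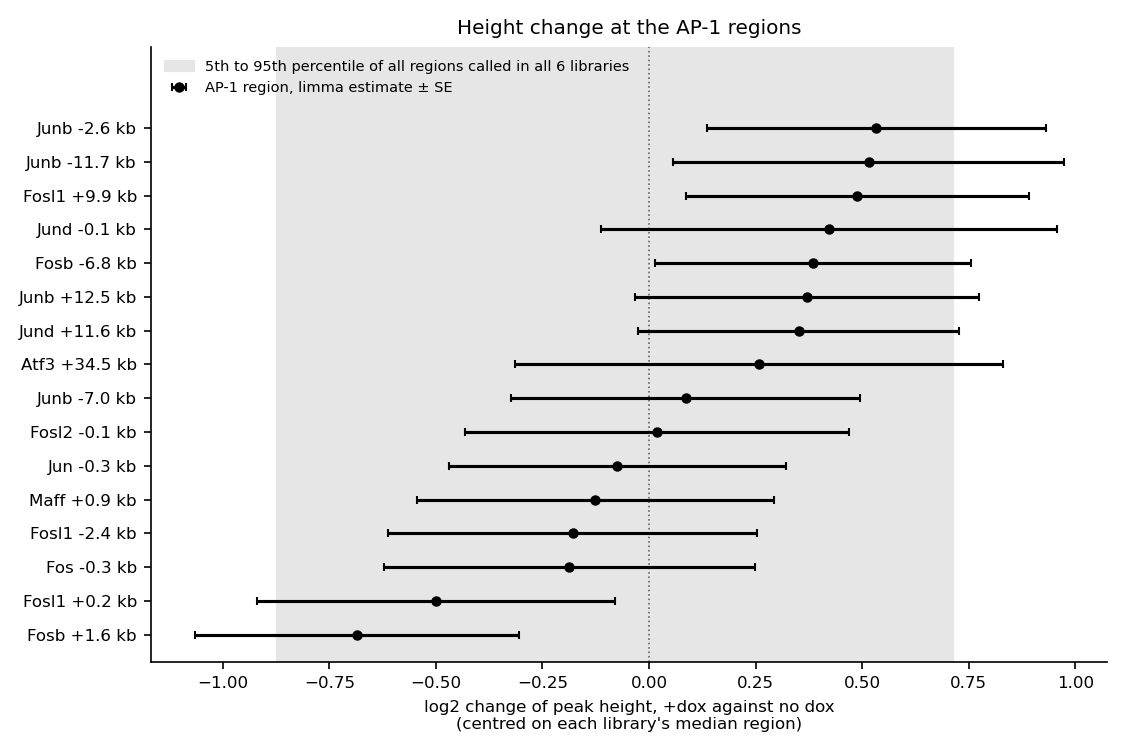
Log2 change of peak height, +dox against no dox, at the 16 AP-1 regions (points, limma estimate with SE bars, n = 3 libraries each), after centring on each library's median region. All 16 points lie within the grey band, which spans the 5th to 95th percentile of the 4838 regions called in all 6 libraries (-0.87 to 0.71).

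Motifs were counted at the 16 regions and at all 4838. All 16 held CAGCTG somewhere in the region extended by 100 bp, as did 85.4% of the 4838, but the AP-1 regions were wider, with a median of 2575 bp against 1800 bp. Within 100 bp on each side of the highest point, CAGCTG was found at 5 of 16 (31.2%; all regions 48.4%), CAGGTG at 0 of 16 (19.2%) and any CANNTG, which includes both, at 11 of 16 (68.8%; all regions 77.4%). TGACTCA was found at 3 of 16 windows (18.8%; all regions 11.9%), those of Junb -2.6 kb, Junb -7.0 kb and Fosb -6.8 kb. TGACGTCA was found at 2 of 16 (12.5%; all regions 1.14%), and a CArG box at 2 of 16 (12.5%; all regions 1.24%). Both strands were searched in each case. Each window rests on the highest point of a single library, and at some regions other libraries had that point elsewhere. At Fos the CArG box was in the -0.3 kb window. The -1.7 kb window, around the highest point in 3 libraries, held no CArG box. Over the 25 merged regions of the Core or Expanded kind, 21 held CAGCTG (84.0%, 95% Wilson interval 65.3% to 93.6%, counting error only) and 13 held TGACTCA. No share over all Core and Expanded regions stands beside these 2 counts. In the whole extended region, TGACTCA was found at 10 of the 16 (62.5%) and at 41.9% of all 4838, which were narrower. The highest point lay within 1 kb of a coding start at 10 of the 16 regions (50.7% of all 4838), and the nearest coding start was the AP-1 gene's own at 11 of 16.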

How the data were processed

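The authors made the deposited files with nf-core/cutandrun 3.2.2: reads were aligned to mm10, blacklisted regions were removed, coverage was scaled to library size (CPM), and peaks were called in each library by SEACR in relaxed mode. Per the labels, SEACR and deepTools were used. Each deposited list gives an interval, its total signal and its maximum signal, in scaled coverage, with no spike-in. Whether a control library entered the calling is not given in the sources used here.

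Here peaks of the 6 lists were merged where they overlapped or touched. Gene bodies came from GENCODE vM21. Depth was found from the smallest step between maximum signals, which is the worth of 1 alignment, and limits the precision of single heights (8 to 328 alignments at the 16 regions called throughout). Whether 1 alignment is a read or a fragment is not given in the sources used here. Separate fragments may therefore be fewer than these counts. Regions called in all 6 libraries were compared with limma 3.58.1 (R 4.3.3; trend, Benjamini-Hochberg adjustment, threshold 0.05) on log2 maximum signal centred on the library median. For each region an exact permutation test (two-sided, 20 assignments, smallest p 0.1) was also run, which cannot reach 0.05. The labels call the libraries biological replicates with numbers. Deviations of libraries with the same number from their group means correlated at 0.485, 0.267 and 0.628 over the 4838 regions. Across numbers, replicates 1 and 2 correlated at 0.265 and 0.219, and replicate 3 with the others at -0.560 to -0.321. Replicate 2 thus stood little closer to its own number than to replicate 1, and the pairing rests mainly on replicate 3. The numbers were taken to pair the samples in a further fit.

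The 10 genes, the lists of other genes and the tests were chosen with earlier results of these data known. All 10 genes are named, and every region called in all 6 libraries or in the Core or Expanded set is described. Of other lists the 2 genes with the highest percentile are named, except 1 gene that is not reported here. The sequences shown were chosen after their values were seen, from the GRCm38.p6 genome as given by RefSeq. Alternatives were leaving out each library, lists of equal length, one threshold, other flanks, consensus and overlap rules, other ranks and motif windows, total signal, no centring and the replicate block. Limma was tested on simulated data with the spread of each region. The simulated libraries varied independently, whereas the deviations of the real libraries correlated, so the rates for the real fit may differ. It called 1 of 80 regions with a change of 1 log2 unit, 41 of 80 with 2 units and 36 of 40 with 4 units. Of 4638 regions without a change it called 2. Most changes of 1 log2 unit were thus missed in the simulated data. Scripts ran on Python 3.11.15 with SciPy 1.17.1, pandas 2.3.3 and NumPy 2.4.6.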

Additional observations from a re-analysis of the deposited data

How the results depend on the processing

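Of 234 values under alternatives, 186 stayed on the same side or within the spread, 16 moved and 32 changed direction. The difference in peaks at the 10 loci (5.33 with all libraries, lowest -1.33 and highest 8.67 when 1 library was left out, the lowest without +dox replicate 3) was -6.33 with lists of equal length, -0.667 with one threshold on total signal, and 15.3 with 25 kb flanks. With replicates 1 and 2 alone, an alternative chosen after seeing the data, it was -1.50, the difference in mean percentile was 7.62 and 2 Expanded regions were found. The mean percentile difference of 15.8 was 5.38 with lists of equal length and 5.42 as common rank. The 4 Expanded regions became 1 with lists of equal length, 2 in the gene body alone, 2 when 3 of 3 libraries were asked for, 11 with 25 kb flanks, and 1 to 6 when 1 library was left out (1 without +dox replicate 3, 2 without +dox replicate 1). The gene body alone held 9 regions called in all 6 libraries and 13 Core regions, and 25 kb flanks held 36 Core regions. The share of Core and Expanded regions with CAGCTG was 28.0% within 100 bp of the highest point and 100% for any CANNTG. Among the 11 regions nearest the AP-1 gene's own coding start, also an alternative chosen after seeing the data, the percentiles of the groups did not overlap at 3. Over all 4838 regions called in all 6 libraries the share was 23.7%, so this count was near it. The count of regions whose common rank was higher in every +dox library, 1 with all libraries, was 2 to 4 when 1 library was left out. It was 4 of 19 without +dox replicate 1, where the share of all regions was 5.83%, and 4 of 16 without +dox replicate 3, where that share was 19.4%. It was 3 of 17 without no dox replicate 1 (8.09%), and 2 without no dox replicate 2 (6.78%), no dox replicate 3 (7.68%) or +dox replicate 2 (4.34%).

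With the replicate block the mean percentile difference was 15.8, from within-pair differences of 13.0, 5.23 and 29.2, the peak difference was 5.33, from 1, -4 and 19, and 0 of 16 regions were called by limma. The block changed no call at an AP-1 region. Every library had a partner, so the block could not change these mean differences or the log2 changes of single regions. Those values are counted among the 186 that stayed.

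Without centring, the sign of the log2 change turned at Fos -0.3 kb (0.74), Maff +0.9 kb (0.80), Fosl1 -2.4 kb (0.75), Fosl1 +0.2 kb (0.43), Jun -0.3 kb (0.85), Fosb +1.6 kb (0.24). With total in place of maximum signal, the sign of the log2 change turned at Atf3 +34.5 kb (-0.18), Maff +0.9 kb (0.16), Jun -0.3 kb (0.018), Jund +11.6 kb (-0.31), Junb +12.5 kb (-0.10). With 1 library left out the sign turned at some regions, with ranges of -0.14 to 0.81 at Atf3 +34.5 kb, -0.47 to 0.093 at Fos -0.3 kb, -0.32 to 0.22 at Maff +0.9 kb, -0.41 to 0.18 at Fosl1 -2.4 kb, -0.29 to 0.12 at Jun -0.3 kb, -0.15 to 0.44 at Fosl2 -0.1 kb, -0.0057 to 0.94 at Jund -0.1 kb, -0.12 to 0.80 at Junb -2.6 kb, -0.10 to 0.30 at Junb -7.0 kb. The causes were not tested. Depth limits the single heights, since several peaks rest on 8 to 20 alignments.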
